A study of Mus musculus with 8 samples.

Results

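The NF-kB family was examined in kidney RNA of 8 mice as 10 genes, each found in the deposited table by its gene name among 55401 genes. They were the 5 genes for the DNA-binding subunits (Nfkb1, Nfkb2, Rela, Relb and Rel) and 3 genes for IkB proteins (Nfkbia, Nfkbie and Nfkbiz). The other 2 were genes for regulators upstream of these (Tnfaip3 and Ikbkb). All 10 passed the filter for testing, a level of 0.5 FPKM or above in no fewer than 4 of the libraries, which 15150 genes passed. Rel passed it with 4 libraries, the smallest number allowed. FPKM is the number of fragments scaled to exon length and to the mapped reads of the library, so levels of different genes can be set side by side.

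Kidney tissue of diabetic mice was compared, from 4 mice given rFGF4, a recombinant form of fibroblast growth factor 4, and 4 of the db/db model group, given vehicle in the study. The labels say kidney and do not name the part taken, and the study's section on RNA isolation names the cortex. The labels call the vehicle mice db/db, a line that lacks a working leptin receptor and becomes obese and diabetic, and for the rFGF4 mice they give the treatment alone. The series design places both groups in db/db mice, whereas the text of the study describes the sequenced mice as made diabetic with streptozotocin, and the files do not settle which holds. The mice are named here by the numbers in the library names, 1, 2, 3 and 5 for rFGF4 and 2, 3, 4 and 5 for vehicle, with 1 library a mouse. The methods of the study describe its db/db mice as males of the C57BLKS/J strain and its vehicle as phosphate-buffered saline. The labels give no age, dose or duration for the sequenced mice, and no group without diabetes was analysed here.

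NF-kB transcription factors are dimers that IkB proteins hold in the cytoplasm until an upstream signal, such as a cytokine or a microbial product, activates the IkB kinase complex. The kinase marks the IkB protein for degradation, the dimer enters the nucleus, and among the genes it switches on are several of its own subunits and inhibitors, which closes a feedback loop. In diabetic kidney disease the pathway is known for its link with inflammation, in tubule cells, podocytes and infiltrating leukocytes alike. The abundance of these transcripts does not show whether the proteins were active, since activation proceeds mainly by degradation of the inhibitor and movement into the nucleus.

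The sequences around the transcription starts are shown for the members that had a promoter window, and were searched for the binding motif of the family. RefSeq promoter windows (GRCm38.p6, 250 bases before to 50 after the start) were found for 6 of the 10 members, in 9 windows, since Nfkb2 and Tnfaip3 have more than one annotated start. Below are the 150 bases from 130 before to 20 after the start of the first window of each gene, 5′ to 3′ on the strand of the gene, with capitals for matches to the kappa B consensus on either strand (overlapping matches run together).
Nfkb2, chr19:46304607-46304756, plus strand: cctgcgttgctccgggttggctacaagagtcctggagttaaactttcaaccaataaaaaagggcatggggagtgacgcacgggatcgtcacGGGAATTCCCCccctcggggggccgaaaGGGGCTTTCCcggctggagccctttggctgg
Rel, chr11:23770950-23771099, minus strand: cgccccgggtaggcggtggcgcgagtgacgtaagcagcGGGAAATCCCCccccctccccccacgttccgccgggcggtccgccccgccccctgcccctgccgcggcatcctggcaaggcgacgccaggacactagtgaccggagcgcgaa
Nfkbia, chr12:55492628-55492777, minus strand: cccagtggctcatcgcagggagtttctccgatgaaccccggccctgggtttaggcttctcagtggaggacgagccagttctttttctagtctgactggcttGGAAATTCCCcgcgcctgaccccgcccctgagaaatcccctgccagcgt
Nfkbie, chr17:45555570-45555719, plus strand: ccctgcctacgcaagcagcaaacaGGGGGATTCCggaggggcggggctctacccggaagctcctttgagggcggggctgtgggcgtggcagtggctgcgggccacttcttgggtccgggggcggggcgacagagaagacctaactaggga
Tnfaip3, chr10:19015391-19015540, minus strand: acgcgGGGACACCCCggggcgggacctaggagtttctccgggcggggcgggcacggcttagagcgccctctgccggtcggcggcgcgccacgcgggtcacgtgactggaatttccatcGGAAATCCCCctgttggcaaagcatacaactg
Rela, chr19:5637411-5637560, plus strand: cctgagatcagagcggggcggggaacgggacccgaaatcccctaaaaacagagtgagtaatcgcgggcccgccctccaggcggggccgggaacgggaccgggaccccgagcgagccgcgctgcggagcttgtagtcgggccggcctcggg

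The consensus, read on both strands, was GGG, a purine, any base, A or T, a pair of pyrimidines and CC, 10 bases in all. It was present in the windows of 5 of the 6 members, against 5.14% of 27025 genes, and in 7 of 9 windows against 4.51% of 32851. In Nfkb2 the first window held a match from -39 to -30 that reads as the consensus on both strands, an overlapping match from -38 to -29 on the other strand, and a match from -11 to -2. Rel likewise held a match on both strands, from -92 to -83, overlapped by one from -91 to -82. The first window of Tnfaip3 held matches from -125 to -116 and from -12 to -3. Single matches lay from -29 to -20 in Nfkbia and from -106 to -97 in Nfkbie. In Rela these letters were not found in the window, which says nothing of binding elsewhere. Nfkb1, Relb, Nfkbiz and Ikbkb had no entry in the promoter table. The study measured no binding, so the matches describe the sequence alone. The build of these coordinates, GRCm38.p6, differs from mm8, the build named in the submitters' processing notes, and the deposited table carries no coordinates.

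**Figure D1:**
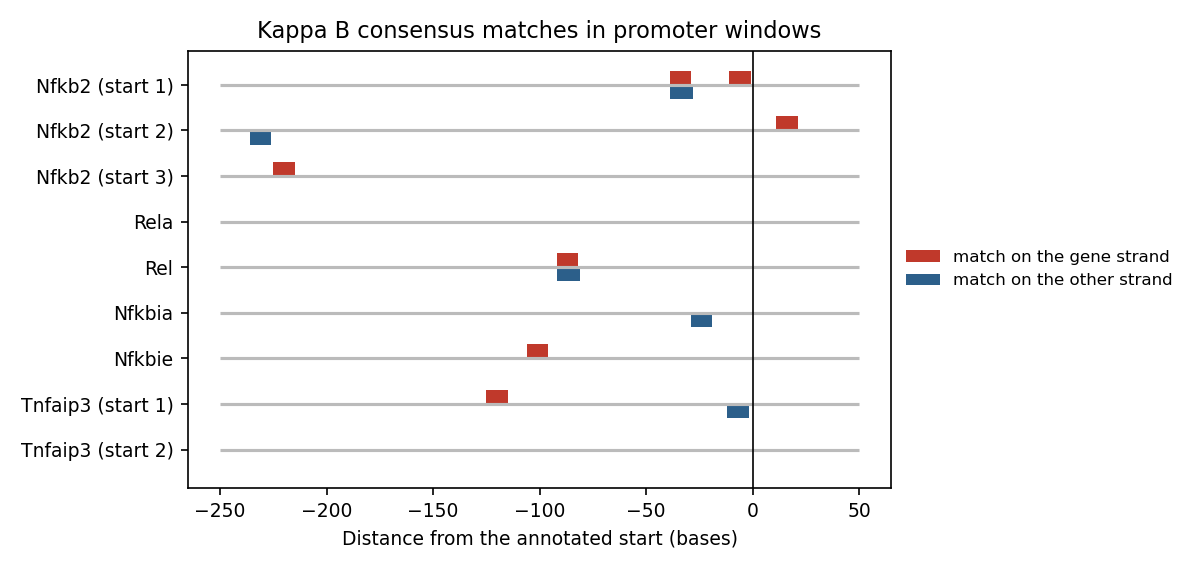
Matches to the kappa B consensus in the RefSeq promoter windows of 6 members (9 annotated starts), plotted by distance from the start in bases; red boxes lie on the strand of the gene and blue boxes on the other strand. At least 1 match was found in 7 of the 9 windows, with none in that of Rela or the second of Tnfaip3.

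No member of the family differed between rFGF4 and vehicle beyond the spread between mice. Of the 10 genes, 0 passed the study's threshold (a limma p under 0.05 before adjustment together with a change of 1.5-fold or more either way), against 1.52% of all tested genes, and 0 reached an unadjusted p under 0.05, against 4.62%. With Benjamini-Hochberg adjustment over all tested genes, 0 members passed 0.05 in limma, and 0% of all genes did. The FPKM ranges of the 2 groups overlapped for every member, so 0 of 10 were separated, against 3.33% of tested genes. The smallest member p in limma was 0.152, of Ikbkb, with an adjusted p of 0.918. The exact permutation p-values of the 10 genes ran from 0.2 to 1, where 4 mice against 4 allow no p below 0.0286. These p-values measure the spread between mice within 1 experiment.

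The estimates lay above 0 for 9 of 10 members on the log2(FPKM + 1) scale, and that of Rel rounded to 0.00. Their median log2 fold change, rFGF4 minus vehicle, was 0.39, beside 0.09 over all tested genes, of which 67.1% lay above 0. The 95% intervals all spanned 0 and were wide, reaching from -1.33 at the lowest to 2.11 at the highest, both for Relb. With single libraries left out, the median of the members depended on the mouse. Without rFGF4 mouse 1 it was 0.06, with 6 genes above 0 and 4 below (Nfkb1, Relb, Rel and Nfkbie). It was 0.15 without vehicle mouse 2 and 0.20 without vehicle mouse 4, but 0.72 without rFGF4 mouse 5 and 0.75 without vehicle mouse 5. Single estimates moved likewise, over 0.10 to 0.90 for Nfkb2, 0.10 to 0.64 for Rela, 0.11 to 0.79 for Nfkbia, 0.0070 to 0.87 for Nfkbiz and 0.17 to 0.44 for Ikbkb, with the lowest value of each without rFGF4 mouse 1 and the highest without vehicle mouse 5 for Nfkb2 and without rFGF4 mouse 5 for the others. Under median-ratio scaling, which sets the libraries to a common typical gene and moves the median of all genes to -0.01, the median of the members was 0.28.

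**Figure D2:**
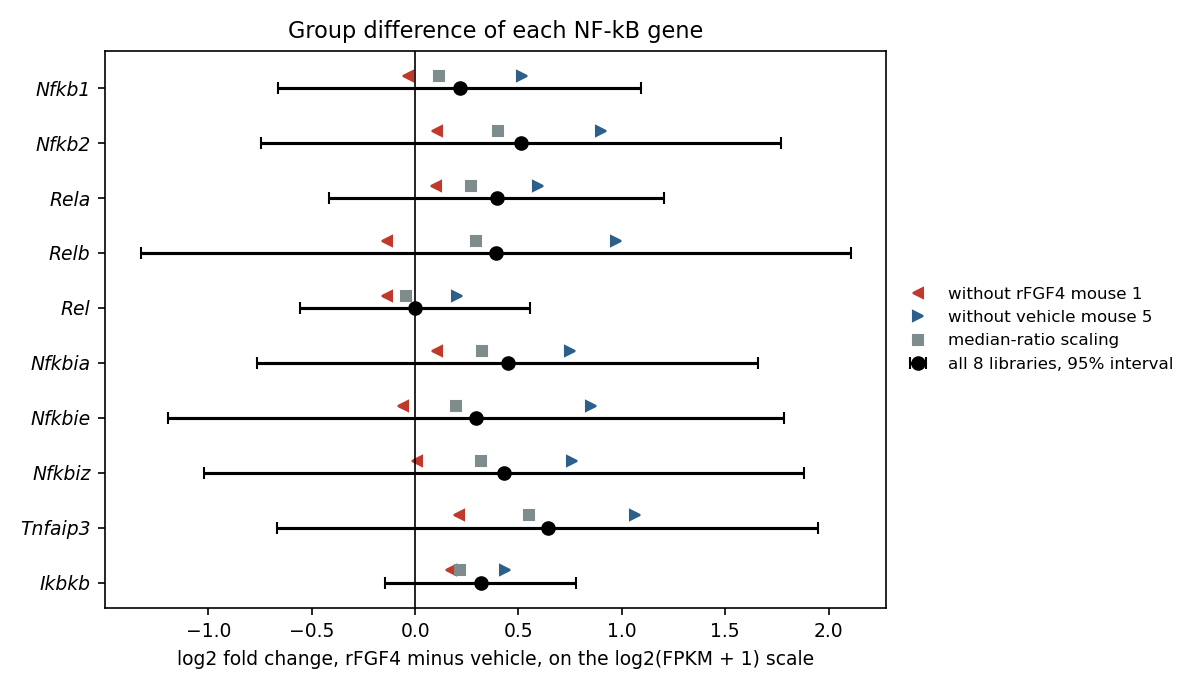
Log2 fold change of each NF-kB gene, rFGF4 minus vehicle on the log2(FPKM + 1) scale (black points, limma estimate from 8 libraries with its 95% interval), beside the estimates without rFGF4 mouse 1 (red), without vehicle mouse 5 (blue) and after median-ratio scaling (grey). All 10 intervals include 0, and the red and blue estimates lie on opposite sides of the black ones.

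Among the subunits, Rela, the partner with the transactivation domain in the most common dimer, was the most abundant. Its level was 27.9, 16.1, 12.2 and 8.48 FPKM in rFGF4 mice 1, 2, 3 and 5, and 8.93, 11.3, 8.31 and 17.3 FPKM in vehicle mice 2, 3, 4 and 5. Only rFGF4 mouse 1 lay above the range of the vehicle mice. The group means were 16.2 ± 8.40 and 11.4 ± 4.09 FPKM (SD, n = 4 each), a log2 fold change of 0.39 (SE 0.35, limma adjusted p = 0.921).

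Nfkb1, whose precursor is processed to the usual partner of RelA, was measured at 6.55, 4.13, 2.56 and 1.89 FPKM in the rFGF4 mice and 1.89, 2.60, 1.92 and 6.20 FPKM in the vehicle mice, in the same order of mouse numbers, which is kept for all genes that follow. One mouse of each group stood at more than 6 FPKM and the groups spanned nearly the same range. The means of 3.78 ± 2.07 and 3.15 ± 2.06 FPKM (SD, n = 4 each) gave a log2 fold change of 0.22 (SE 0.38, limma adjusted p = 0.953).

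Nfkb2 encodes the precursor of the subunit used in the alternative branch of the pathway, which runs through receptors such as the lymphotoxin beta receptor. It was measured at 19.0, 8.10, 5.52 and 3.46 FPKM with rFGF4 and at 2.29, 5.61, 3.39 and 12.4 FPKM with vehicle. Again rFGF4 mouse 1 and vehicle mouse 5 were the high ones. The means were 9.02 ± 6.91 and 5.92 ± 4.53 FPKM (SD, n = 4 each), with a log2 fold change of 0.51 (SE 0.55, limma adjusted p = 0.925).

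Relb, the partner of that subunit in the alternative branch, varied most of all members. Its 4 rFGF4 values were 12.9, 4.56, 2.15 and 0.936 FPKM, and its vehicle values were 0.807, 2.72, 0.994 and 10.9 FPKM. The highest library was thus 16.0-fold above the lowest, and each group held both a mouse above 10 FPKM and a mouse below 1. The group means, 5.13 ± 5.39 and 3.85 ± 4.76 FPKM (SD, n = 4 each), differed by less than either SD, with a log2 fold change of 0.39 (SE 0.75, limma adjusted p = 0.953).

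Rel, for the c-Rel subunit found mainly in lymphocytes and myeloid cells, was the lowest member in 8 of 8 libraries. It reached 1.02, 0.587, 0.359 and 0.252 FPKM with rFGF4 and 0.171, 0.554, 0.284 and 1.33 FPKM with vehicle. Vehicle mouse 5 was the highest here. With means of 0.554 ± 0.340 and 0.585 ± 0.523 FPKM (SD, n = 4 each), the log2 fold change was 0.00 (SE 0.24, exact permutation p = 1), on a scale where the added 1 FPKM shrinks the change of so low a gene.

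**Figure D3:**
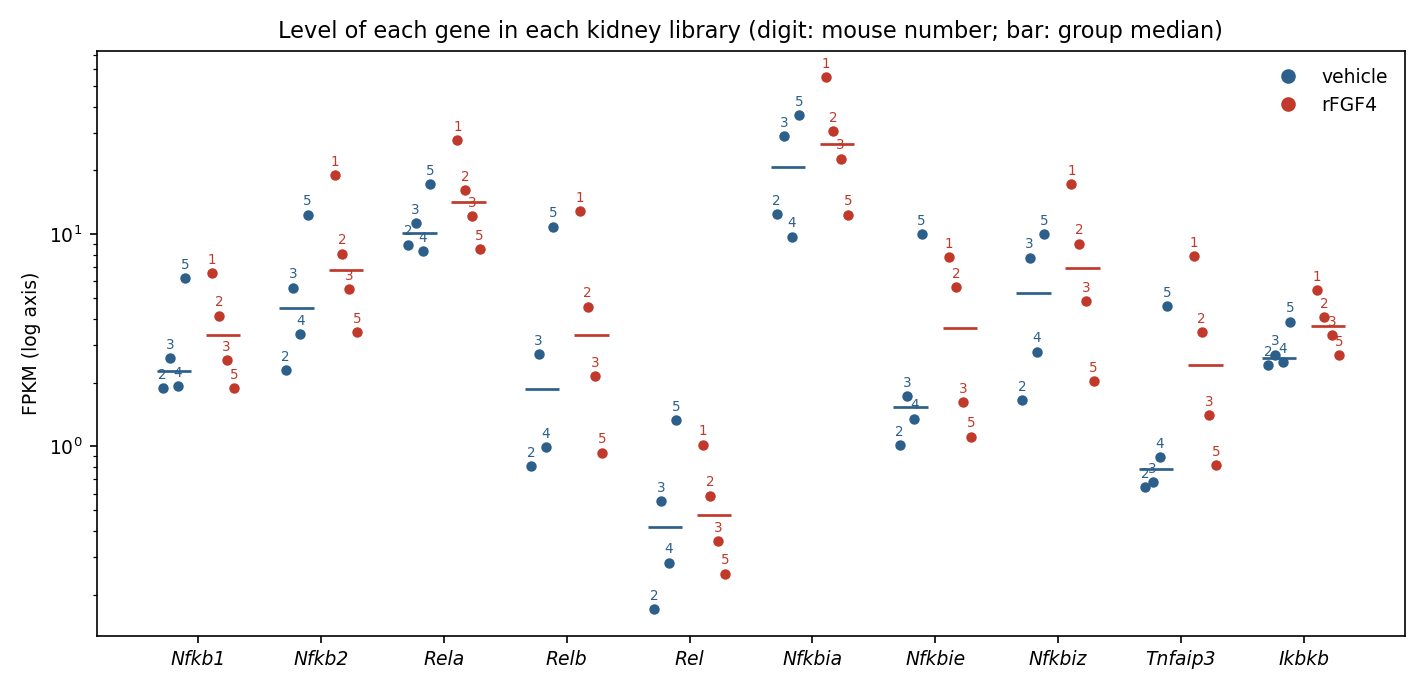
FPKM of the 10 NF-kB genes in each kidney library on a log axis, vehicle in blue and rFGF4 in red, each point numbered by mouse, with bars at the group medians. In every gene the groups overlap, and rFGF4 mouse 1 is the highest library in 8 genes and vehicle mouse 5 in 2.

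The genes for IkB proteins showed the same arrangement of mice. Nfkbia encodes IkB alpha, the inhibitor that is degraded and resynthesised fastest and a standard target of the pathway, and it was the most abundant member in 8 of 8 libraries. It was measured at 54.9, 30.7, 22.7 and 12.4 FPKM with rFGF4 and at 12.4, 28.9, 9.76 and 36.6 FPKM with vehicle. The rFGF4 mice other than mouse 1 fell inside the range of the vehicle mice. The means were 30.2 ± 18.1 and 21.9 ± 12.9 FPKM (SD, n = 4 each), with a log2 fold change of 0.45 (SE 0.53, limma adjusted p = 0.930).

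Nfkbie, for IkB epsilon, was measured at 7.78, 5.63, 1.61 and 1.11 FPKM with rFGF4 and at 1.01, 1.73, 1.35 and 10.0 FPKM with vehicle. All 4 rFGF4 mice lay within the range of the vehicle mice, since vehicle mouse 5 was the highest library. The means of 4.03 ± 3.21 and 3.53 ± 4.34 FPKM (SD, n = 4 each) gave a log2 fold change of 0.29 (SE 0.65, limma adjusted p = 0.956).

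Nfkbiz encodes IkB zeta, an atypical nuclear IkB protein that acts on a subset of inflammatory genes. Its levels were 17.3, 9.04, 4.83 and 2.03 FPKM with rFGF4 and 1.66, 7.76, 2.80 and 10.0 FPKM with vehicle. Vehicle mouse 3 came close to vehicle mouse 5 in this gene. The means were 8.29 ± 6.64 and 5.56 ± 3.98 FPKM (SD, n = 4 each), with a log2 fold change of 0.43 (SE 0.63, limma adjusted p = 0.941).

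The regulators differed in how widely they varied. Tnfaip3 encodes a ubiquitin-editing enzyme that damps signalling from cytokine and Toll-like receptors and is itself induced by NF-kB. It was measured at 7.87, 3.46, 1.40 and 0.820 FPKM with rFGF4, whereas the vehicle mice were at 0.646, 0.681, 0.888 and 4.59 FPKM. Vehicle mouse 5 stood far from the other vehicle mice, all of which were below 1 FPKM. The means were 3.39 ± 3.20 and 1.70 ± 1.93 FPKM (SD, n = 4 each), with a log2 fold change of 0.64 (SE 0.57, limma adjusted p = 0.921). With single libraries left out it lay between 0.21, without rFGF4 mouse 1, and 1.06, without vehicle mouse 5.

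Ikbkb, for the catalytic IkB kinase beta, had the narrowest range of the members as a ratio, 2.25-fold from the lowest library to the highest. It was measured at 5.45, 4.06, 3.35 and 2.69 FPKM with rFGF4 and at 2.43, 2.71, 2.50 and 3.87 FPKM with vehicle. In this gene 2 rFGF4 mice lay above all vehicle mice and 2 within their range. The means of 3.89 ± 1.18 and 2.88 ± 0.676 FPKM (SD, n = 4 each) gave a log2 fold change of 0.32 (SE 0.20, 95% interval -0.14 to 0.78, limma adjusted p = 0.918), with an exact permutation p of 0.2.

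Ratios within a library set members against each other, independently of any factor common to all genes of that library. The ratio of Nfkbia, the inhibitor, to Rela, its main target, was 1.97, 1.91, 1.86 and 1.46 with rFGF4 and 1.39, 2.56, 1.17 and 2.12 with vehicle. It exceeded 1 in 8 of 8 libraries, and the means were nearly equal at 1.80 ± 0.232 and 1.81 ± 0.645 (SD, n = 4 each; two-sided exact permutation p = 0.914). The ratio of Relb to Rela, which sets the alternative branch against the classical one, ran from 0.0904 in vehicle mouse 2 to 0.630 in vehicle mouse 5. Its means were 0.258 ± 0.154 with rFGF4 and 0.270 ± 0.248 with vehicle (SD, n = 4 each; exact permutation p = 0.857). The precursors Nfkb2 and Nfkb1 stood at a ratio of 2.21 ± 0.477 with rFGF4 and 1.78 ± 0.412 with vehicle (SD, n = 4 each; exact permutation p = 0.257). With Benjamini-Hochberg adjustment over these 3 ratios the exact permutation p-values were 0.914, 0.914 and 0.771. These ratios are of transcript levels and not of protein.

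Most members varied widely between mice, also of the same group. Over all 8 libraries the highest exceeded the lowest by 2.25-fold for Ikbkb to 16.0-fold for Relb, with a median of 8.04-fold over the 10 genes, beside a median of 2.17-fold over 14823 tested genes with a value above the floor in every library. Relb had a larger fold than 95.4% of those genes, Tnfaip3 than 94.0%, Nfkbiz than 92.9% and Nfkbie than 92.5%. Nfkb2 exceeded 91.0%, Rel 90.4% and Nfkbia 85.9%, whereas Nfkb1 (74.5%), Rela (73.3%) and Ikbkb (52.3%) were nearer to the middle. Among the 4 rFGF4 mice alone the fold was 13.8 for Relb and 2.02 for Ikbkb, and among the 4 vehicle mice 13.5 and 1.60. The SD within groups on the log2(FPKM + 1) scale was 1.24 for Relb, larger than that of 97.4% of tested genes, 0.38 for Rel (68.9%) and 0.29 for Ikbkb (54.4%), beside a median of 0.27 over all tested genes. After median-ratio scaling the folds still ran from 1.57 (Ikbkb) to 11.2 (Relb), with a median of 6.10.

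The same mice were high in nearly every member. In 8 of 10 genes rFGF4 mouse 1 was the highest library, and in Rel and Nfkbie vehicle mouse 5 was. These 2 libraries took the first and second places in 9 genes, the exception being Ikbkb, in which rFGF4 mouse 2 came second. The lowest library was vehicle mouse 2 in 8 genes and vehicle mouse 4 in Rela and Nfkbia. Over the 10 members, the median deviation from the mean of each gene on the log2(FPKM + 1) scale was 1.23 in rFGF4 mouse 1 and 0.78 in vehicle mouse 5, and -0.81 in vehicle mouse 2, -0.68 in rFGF4 mouse 5 and -0.66 in vehicle mouse 4. Over all tested genes the same deviation was 0.28 in rFGF4 mouse 1 and 0.11 in vehicle mouse 5 and lay between -0.12 and 0.07 in the other 6 libraries. Scaled by the median ratio, rFGF4 mouse 1 was the highest in 7 members and vehicle mouse 5 in 3. Being highest in rFGF4 mouse 1 was not particular to the members. It held for 10 of 12 other IkB and kinase genes and 12 of 18 ubiquitin ligases and brakes. Among receptors and adaptors it held for 12 of 15, and among inflammatory target genes for 8 of 27. The share over all tested genes is not given here.

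Over the 8 mice the members were correlated in all 45 pairs. Pearson's r of log2(FPKM + 1) ran from 0.78 (Rel with Ikbkb) to 0.99 (Nfkb1 with Relb), with a median of 0.94, and Spearman's rho from 0.71 to 1 with a median of 0.90. Exact permutation p-values, unadjusted, ran from 2.48e-05 to 0.0209 for r and from 4.96e-05 to 0.0576 for rho. Without the 2 libraries farthest from the median of the first gene of each pair, r was 0.61 to 0.99. Without rFGF4 mouse 1 and vehicle mouse 5 it was 0.58 (Nfkbia with Tnfaip3) to 0.99, and after median-ratio scaling 0.64 to 0.99. All members come from the same 8 libraries, and correlation was common in the table. The median r of Nfkbia with all tested genes was 0.53, and 18.0% of them had an r with it at or above that of its least correlated member, 0.83. For Rela the median was 0.59, and 24.0% of tested genes reached the r of its least correlated member, 0.84.

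The genes most like Nfkbia over the 8 libraries by Pearson's r were Ctsb (0.993), for the lysosomal protease cathepsin B, Larp7 (0.992), Rars (0.989), Gtpbp6 (0.988) and Rpl41 (0.987). For Rela they were Rps9 (0.996), Wasf2 (0.994), 2610002M06Rik (0.994), Dcdc2a (0.993) and Nvl (0.993). None of these 10 genes is a member of the family, and Rpl41 and Rps9, ribosomal protein genes, can share reads with near-identical copies. Ctsb, for instance, was at 183, 141, 126 and 99.3 FPKM with rFGF4 and at 96.0, 133, 92.9 and 160 FPKM with vehicle, the same high and low mice as Nfkbia over a narrower range.

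Markers of some other cell types were high in the same mice as the members, and others were not. In bulk kidney tissue, fewer cells of a type and less RNA per cell cannot be told apart. Kidney tubule markers were detected in every library, with 10 of 10 genes tested, and their summed level was 2252, 4470, 7640 and 7874 FPKM in the rFGF4 mice and 9522, 5258, 8018 and 4550 FPKM in the vehicle mice. The libraries highest in most members, rFGF4 mouse 1 and vehicle mouse 5, were thus among the 3 lowest in tubule transcripts. Macrophage markers (8 of 8 tested, 8 estimates above 0 and 0 past the threshold) summed to 562, 238, 75.4 and 46.8 FPKM with rFGF4 and to 31.1, 144, 35.1 and 580 FPKM with vehicle. T cell markers, of which 0 of 6 passed the filter, summed to 11.7, 5.21, 1.35 and 1.21 FPKM with rFGF4 and to 0.603, 1.45, 0.795 and 28.7 FPKM with vehicle. Both of these sums were highest in rFGF4 mouse 1 and vehicle mouse 5.

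Vehicle mouse 5 stood apart further. Its B cell and plasma cell markers summed to 22909 FPKM, against 24.0 to 2716 FPKM in the other 7 libraries, and its lymph node stroma markers to 82.7 FPKM, against 3.49 to 18.4 FPKM. Neutrophil markers ran from 22.8 to 240 FPKM with rFGF4 and from 3.31 to 390 FPKM with vehicle, with vehicle mouse 3 the highest. Podocyte markers ran from 64.6 to 90.5 FPKM and from 46.0 to 84.8 FPKM, and endothelial markers from 22.1 to 33.0 FPKM and from 27.3 to 41.8 FPKM, ranges that overlapped. No marker of any list was at the floor in all libraries. Mitochondrially encoded genes took 19.0% of the summed FPKM in rFGF4 mouse 1 and 24.4% in vehicle mouse 5, the lowest shares, and up to 38.4%, in vehicle mouse 2. The part of these cell types and of the library-wide displacement in the levels of the NF-kB genes was not tested. Without both rFGF4 mouse 1 and vehicle mouse 5, a choice made after the values were seen, all 10 members had estimates above 0. Their median log2 fold change was 0.37, beside 0.07 over all genes. Of the members, 0 passed the threshold, against 1.8% of the genes tested, 273 in number. As the members were correlated over the mice, these signs are not 10 separate results.

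**Figure D4:**
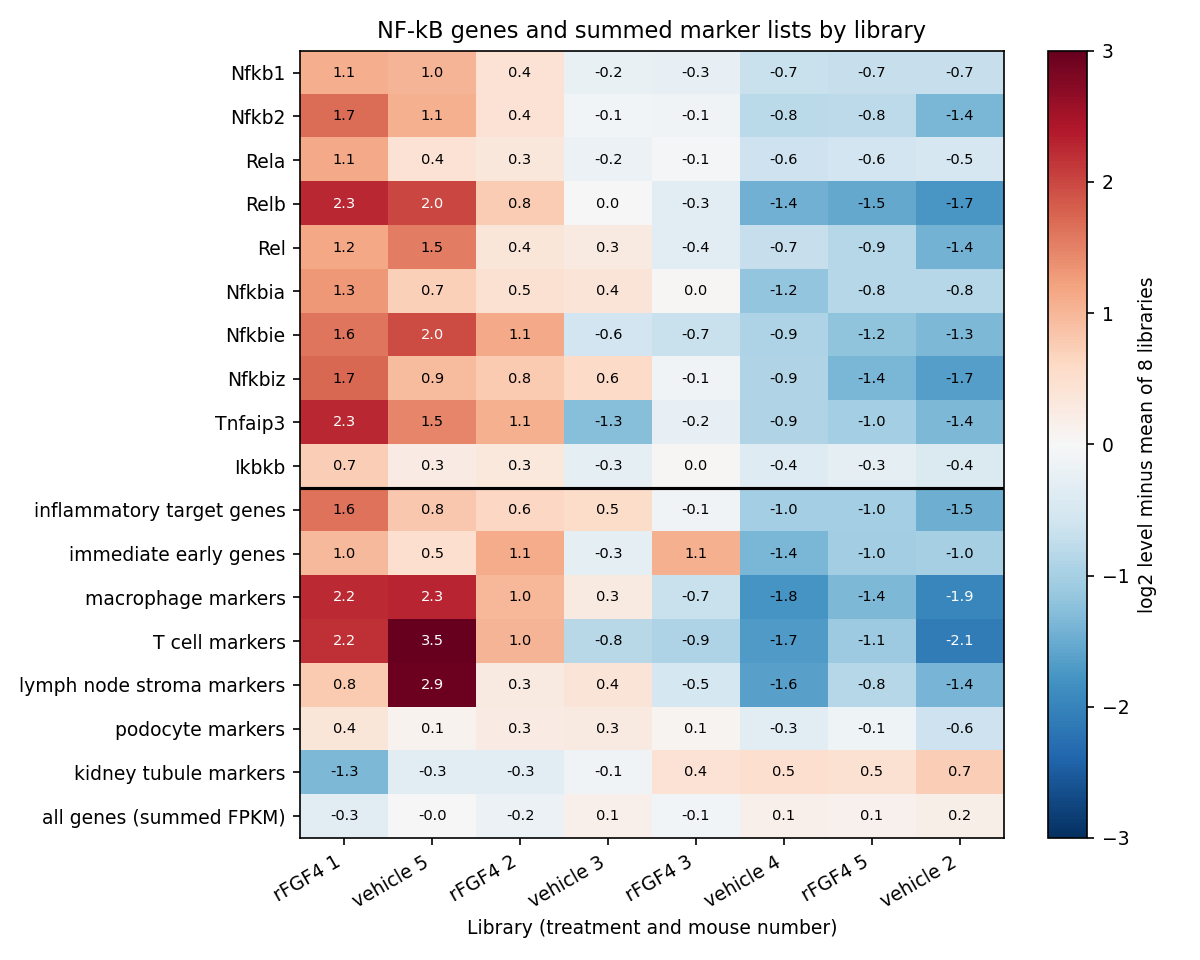
Log2 level of each NF-kB gene (top) and of summed marker lists and all genes (bottom) in each library, minus the mean of the 8 libraries; libraries are sorted by the median of the members, red is above and blue below the mean. The members and the macrophage and T cell markers are high in rFGF4 mouse 1 and vehicle mouse 5, whereas the tubule markers are lowest in rFGF4 mouse 1 and highest in vehicle mouse 2.

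The rest of the pathway was read from 4 lists with 80 genes, of which 72 were tested. Of these, 0 passed the study's threshold in limma, against 1.52% of all tested genes, 1 had an unadjusted p under 0.05, against 4.62%, and 0 an adjusted p under 0.05. Estimates lay above 0 for 57 and below for 15, where 67.1% of all tested genes lay above 0, with a median log2 fold change of 0.21, beside 0.09 over all tested genes.

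The other IkB proteins and kinases of the pathway were all tested, 12 of 12, with 10 estimates above 0 and 2 below, 0 past the threshold and a median log2 fold change of 0.23. Ikbkg, for the regulatory subunit of the IkB kinase complex, had the smallest p. It was at 4.64, 1.75, 1.96 and 0.572 FPKM with rFGF4 and at 1.38, 0.564, 0.697 and 0.524 FPKM with vehicle, a log2 fold change of 0.73 (SE 0.36, limma p = 0.0748 and adjusted p = 0.918, exact permutation p = 0.0857). The difference passed the threshold without rFGF4 mouse 5, the lowest of its group, at 1.02 (limma adjusted p = 0.481). Map3k7, for the kinase upstream of the complex, had means of 7.99 ± 0.757 and 6.61 ± 1.16 FPKM (SD, n = 4 each) and a log2 fold change of 0.25 (SE 0.14, exact permutation p = 0.114).

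Ubiquitin ligases and brakes of the pathway were represented by 18 of 19 genes (Tnip3 was not tested), with 15 estimates above 0, 3 below and 0 past the threshold, and a median log2 fold change of 0.14. Itch encodes a ubiquitin ligase that works with the product of Tnfaip3. It was measured at 8.01, 10.4, 12.6 and 8.01 FPKM with rFGF4 and at 5.80, 6.01, 7.33 and 6.83 FPKM with vehicle, so the groups did not overlap. Its highest level was in rFGF4 mouse 3, and rFGF4 mouse 1, the highest library in 8 members, shared the lowest level of its group with mouse 5. The log2 fold change was 0.50 (SE 0.16, 95% interval 0.13 to 0.88, limma p = 0.0142, adjusted p = 0.918), under the fold limit of 1.5, and the exact permutation p of 0.0286 is the smallest that the design allows. Without both rFGF4 mouse 1 and vehicle mouse 5 it passed the threshold at 0.60 (limma adjusted p = 0.753). Ripk1, for a kinase of the tumour necrosis factor receptor complex, had means of 4.74 ± 1.16 and 3.75 ± 0.649 FPKM (SD, n = 4 each; log2 fold change 0.26, SE 0.18, exact permutation p = 0.2).

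Of 18 receptors and adaptors that feed the pathway, 15 were tested (Il1rap, Tlr4 and Malt1 were not), with 14 estimates above 0, 1 below and 0 past the threshold, and a median log2 fold change of 0.22. Tnfrsf12a, for the receptor of the cytokine TWEAK, was at 30.1, 13.7, 9.54 and 3.08 FPKM with rFGF4 and at 2.52, 7.42, 2.84 and 11.0 FPKM with vehicle. Within each group the high and low mice were those of the members, but rFGF4 mouse 2 was above vehicle mouse 5. The log2 fold change of 0.96 (SE 0.64, exact permutation p = 0.2) was past the threshold, at 1.47, without rFGF4 mouse 5 (limma adjusted p = 0.506) and under no other alternative run. Tnfrsf1a, for the main receptor of tumour necrosis factor, had means of 35.6 ± 17.2 and 24.6 ± 8.54 FPKM (SD, n = 4 each; log2 fold change 0.45, SE 0.38, exact permutation p = 0.371).

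Inflammatory target genes were tested for 27 of 31 (Il6, Sele, Selp and Csf2 were not), with 18 estimates above 0, 9 below and 0 past the threshold, and a median log2 fold change of 0.30. Cxcl1, a neutrophil-attracting chemokine, had the smallest p. It was at 50.4, 50.6, 32.0 and 0.648 FPKM with rFGF4 and at 0.260, 8.48, 0.403 and 8.37 FPKM with vehicle. Thus 3 rFGF4 mice were above all vehicle mice and 1 was near the lowest. The log2 fold change was 2.46 (SE 1.24, 95% interval -0.37 to 5.29, limma p = 0.0803 and adjusted p = 0.918, exact permutation p = 0.171), and without rFGF4 mouse 5 it passed the threshold at 3.65 (limma adjusted p = 0.382). Tnfaip2 had means of 11.5 ± 9.39 and 5.32 ± 2.23 FPKM (SD, n = 4 each), a log2 fold change of 0.79 (SE 0.47, exact permutation p = 0.2) and, without rFGF4 mouse 5, one of 1.09 that passed the threshold (limma adjusted p = 0.529). Il1b, for interleukin 1 beta, passed it without vehicle mouse 2, with a log2 fold change of -1.70 (limma adjusted p = 0.999). In this list 8 genes had their highest level in rFGF4 mouse 1, 7 in vehicle mouse 5 and 12 in another library, whereas among the receptors and adaptors 12 of 15 were highest in rFGF4 mouse 1.

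Immediate early genes respond within minutes to many stimuli, among them handling of tissue, and were followed beside the members. Their sum was 198, 219, 211 and 49.2 FPKM with rFGF4 and 50.6, 82.6, 39.2 and 144 FPKM with vehicle, high in 3 of 4 rFGF4 mice, including mouse 3, which was not high in the members. Of 10 such genes 9 were tested, all with estimates above 0 (median log2 fold change 0.86), and 1, Dusp1, passed the threshold. Over all tested genes 67.1% of estimates lay above 0, with a median of 0.09, and 1.52% of genes passed. In the tubule list 2 estimates lay above 0 and 8 below with 0 past the threshold, in the podocyte list 5 of 5 lay above 0 with 1, Synpo, past it, and in the endothelial list 5 of 5 lay below 0 with 0 past it.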

How the data were processed

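Poly(A) RNA of kidney tissue of 8 mice was sequenced in pairs of reads. The authors assembled mapped reads with StringTie, merged transcripts with Gffcompare and deposited 1 table of FPKM per gene. The submitters' processing notes also list HISAT2 2.0, StringTie 1.3.0, Bowtie 0.12.2 and the build mm8, without roles. The deposited table further holds the authors' edgeR results, a ratio (fold change), its log2, a p-value and a q-value, which were not used. It has no counts, so depth and counting error are unknown, the edgeR test of the study could not be run, and 0.0001 was read as a floor in place of 0. A low value is therefore less certain than its digits show.

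Genes with at least 0.5 FPKM in 4 libraries (15150 of 55401) were transformed as log2(FPKM + 1), which understates changes of low genes, and fitted in limma 3.58.1 (R 4.3.3) with a variance trend, without covariates. The fit was run on simulated data with noise drawn separately for each gene and library. Such data lack a displacement shared by the genes of a library, so the run does not cover that feature. Benjamini-Hochberg adjustment ran over all tested genes. Exact permutation tests (two-sided, 70 assignments) and correlations used scipy 1.17.1. Groups came from the labels. The members and lists were chosen with earlier results of these data known. Named are all members, the 2 genes with the smallest p of each pathway list, and for Nfkbia and Rela the 5 genes of highest r with a mean of at least 1 FPKM. Dusp1, Synpo, Il1b, and the values given for single libraries left out, were named after their values were seen. Alternatives were a pseudocount of 0.1, no filter, no trend, median-ratio scaling, a replicate block, a fold change of 2, adjusted p-values, each library left out and, chosen after the data were seen, both rFGF4 mouse 1 and vehicle mouse 5 left out. Promoters came from RefSeq (GRCm38.p6).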

Additional observations from a re-analysis of the deposited data

Results flagged for a closer look

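Within groups of 4 mice, the gap between an extreme mouse and its nearest neighbour was divided by the range of the group, both on a log scale (log2(FPKM + 1) for single genes and log2 of the sum for sums), and read against the 95% limit of Dixon's test, which chance passes in about 1 in 20 groups. Of 54 groups examined, 4 passed, where about 3 would by chance, and 3 of the 4 concern vehicle mouse 5. Tnfaip3 in vehicle mouse 5 (4.59 FPKM, the other vehicle mice at 0.646 to 0.888) had a gap share of 0.888. The sum of Tnfaip3 and Ikbkb in the same mouse had a gap share of 0.902. The summed FPKM of the whole library of vehicle mouse 5, 481321 against 541179 to 552604 in the other vehicle mice, had a gap share of 0.849. The summed immediate early genes in rFGF4 mouse 5, 49.2 FPKM against 198 to 219 in the other rFGF4 mice, had a gap share of 0.932. The causes were not tested.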

How the results depend on the processing

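No member passed the threshold under any alternative: of 140 member values from 14 alternatives, 0 had a limma p under 0.05 and the smallest was 0.0582, without rFGF4 mouse 5. Among all tested genes, 231 passed (165 higher, 66 lower), 348 with a pseudocount of 0.1, 54 with a fold change of at least 2, 0 with an adjusted p, and 187 (without rFGF4 mouse 2) to 575 (without rFGF4 mouse 5) with single libraries left out, of which 432 without vehicle mouse 5. Median-ratio scaling left 174 (93 higher, 81 lower). Of the other pathway genes, 1 passed with the replicate block (Itch, 0.63), 1 in the 6 libraries without rFGF4 mouse 1 and vehicle mouse 5, and 0 to 4 with single libraries left out. Mice that share a number did not deviate together (correlations -0.23, -0.16 and -0.39 for numbers 2, 3 and 5). With only 3 shared numbers, such a check cannot exclude a pairing of the mice. With the number as a replicate block, 262 of all genes passed, and the log2 fold changes changed sign for Nfkb1 (-0.17), Nfkb2 (-0.045), Rela (-0.019), Relb (-0.41), Nfkbia (-0.19), Nfkbie (-0.24) and Nfkbiz (-0.18), and the members' median was -0.17 (2 above 0, 8 below). Leaving out single libraries gave Nfkb1 -0.036 to 0.52, Relb -0.14 to 0.97, Nfkbie -0.057 to 0.85 and Rel -0.13 to 0.20, the negative ends without rFGF4 mouse 1 for all 4. Rel was 0.087 with a pseudocount of 0.1 and 0.069 in the 6 libraries. The block estimates rest on the 3 shared numbers, so rFGF4 mouse 1 and vehicle mouse 4, whose numbers occur once, add nothing to them. The cause of the other shifts was not tested. With no depth, the precision of low genes such as Rel cannot be given.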
